A study of Mus musculus with 8 samples.

Results

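The chemokine ligands described here are the inflammatory and epithelial members of the family, taken as the genes whose symbols are Ccl or Cxcl followed by a number, with Cx3cl1 and Xcl1, and without Cxcl12, Cxcl13, Ccl19 and the Ccl21 genes of lymphoid tissue. Each gene was read from the brightest of the probe sets that carry its symbol alone, a probe set being the group of short array probes that measures a transcript. This gave 31 genes of the 18172 measured. The study profiled the distal trachea and carina, the point where the trachea divides into the main bronchi, of female C57Bl/6 mice at 14 months, called old, and at 2 months, called young, with 4 mice of each age and 1 Affymetrix Mouse Genome 430 2.0 array per mouse. The labels name no transgene and no treatment, and in them mice 1, 2, 5 and 6 are old and mice 3, 4, 7 and 8 young. The comparison asks which chemokine ligands differ in the airway wall between these ages.

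Chemokines are small secreted proteins that guide the movement of leukocytes through G protein-coupled receptors on the cells they attract. They are named for the spacing of their first cysteines, as CC, CXC, CX3C and C chemokines, and many are induced in epithelial cells, macrophages and fibroblasts by cytokines that activate the transcription factor NF-kappaB. In the airway they recruit neutrophils, monocytes, eosinophils, dendritic cells and lymphocytes to the mucosa, and some are made by the epithelium without inflammation.

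The upstream sequences of 4 ligands, out of 21 with a RefSeq promoter entry, are given as picked examples. They illustrate windows with and without the kappaB consensus, the site bound by NF-kappaB. All 4 genes had a larger mean signal in the old than in the young mice, so they do not represent the 21. A link between the consensus and age was not tested. Each printed sequence is the 250 bases before the annotated transcription start in RefSeq on GRCm38.p6. It is written 5′ to 3′ on the gene's strand, which is the plus strand for all of them. Capitals mark the letters that match the kappaB consensus on either strand.
Ccl20, chr1:83116516-83116765: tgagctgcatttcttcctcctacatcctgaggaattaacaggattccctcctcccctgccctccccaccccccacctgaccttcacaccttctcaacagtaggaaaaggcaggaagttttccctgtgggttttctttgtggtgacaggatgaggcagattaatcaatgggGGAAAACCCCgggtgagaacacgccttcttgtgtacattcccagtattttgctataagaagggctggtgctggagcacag
Cxcl2, chr5:90903649-90903898: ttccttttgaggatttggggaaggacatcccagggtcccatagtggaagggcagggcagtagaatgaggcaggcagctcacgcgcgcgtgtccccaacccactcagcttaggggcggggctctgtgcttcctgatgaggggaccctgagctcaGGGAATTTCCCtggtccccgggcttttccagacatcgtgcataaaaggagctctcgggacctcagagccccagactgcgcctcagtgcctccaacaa
Cxcl1, chr5:90890995-90891244: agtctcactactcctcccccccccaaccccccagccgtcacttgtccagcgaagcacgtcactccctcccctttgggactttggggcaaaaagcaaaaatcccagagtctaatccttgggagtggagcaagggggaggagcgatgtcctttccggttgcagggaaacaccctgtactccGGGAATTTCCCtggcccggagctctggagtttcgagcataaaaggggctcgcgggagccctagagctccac
Ccl8, chr11:82114935-82115184: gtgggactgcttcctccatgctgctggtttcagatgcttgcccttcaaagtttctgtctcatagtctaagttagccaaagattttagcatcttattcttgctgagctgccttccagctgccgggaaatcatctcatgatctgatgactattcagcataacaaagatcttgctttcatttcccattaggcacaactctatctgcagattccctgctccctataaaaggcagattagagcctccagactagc
In Ccl20 the match lay 80 to 71 bases before the start, on the minus strand. In Cxcl2 a pair of overlapping matches, 1 on each strand, ran from 97 to 87 bases before the start. The same letters stood 71 to 61 bases before the start of Cxcl1. No kappaB match was found in the window of Ccl8, which holds TATAAA 32 to 27 bases before its start.

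A promoter entry was found for 21 of the 31 ligands, in 24 windows, and a ligand was counted once if any of its windows held a motif. Of these, 7 (33.3%) held the kappaB consensus, namely Ccl1, Ccl9, Ccl20, Cxcl1, Cxcl2, Cxcl3 and Cxcl10, against 7.25% of all 32851 promoter windows of the same length. The letters TATAAA were in 8 of the 21 (38.1%) and in 12.4% of all windows, the AP-1 letters TGANTCA in 3 (14.3%) and 6.75%, and the STAT letters TTCNNNGAA in 2 (9.52%) and 7.02%. Both strands were searched for every motif. Ccl1 and Cxcl3, at mean signals under 32 in both ages, were among the genes whose window held the kappaB letters.

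The arrays were alike in scale, with a median signal between 150 and 161 over the probe sets of each array. Signals are in the arbitrary linear units of the deposited table and cannot be set against each other between probe sets. Markers of the labelled tissue were bright in every mouse. Scgb1a1 of club cells was at 25658 or more, Foxj1 of ciliated cells at 2000.5 or more and Krt5 of basal cells at 1465 or more. Replicate mice of an age varied by a median SD of 0.145 in log2 signal among the brighter probe sets and 0.441 among those under a signal of 151, so dim ligands were measured less precisely.

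Most chemokine ligands were higher in old mice, and none passed the test across all genes. The log2 fold change of old minus young was positive for 25 of the 31 (80.6%), against 48.9% of all genes, with a median of 0.41 over the ligands and -0.005 over all genes. By limma, 0 ligands were higher or lower at an adjusted p under 0.05, where 0.336% of all genes were higher and 0.176% lower. At an unadjusted p under 0.05, 13 were higher (41.9%, against 7.23% of all genes) and 1 was lower (3.23%, against 7.29%). All old mice exceeded all young mice for 6 ligands (19.4%, against 4.95% of all genes), which were Ccl20, Ccl8, Cxcl2, Ccl6, Cxcl16 and Ccl11. Every old mouse lay below every young mouse for 1 ligand, Cxcl17 (3.23%, against 5.11%). A fold above 2, the study's threshold, with an unadjusted p under 0.05 was met by Ccl20, Ccl8 and Ccl24 (9.68%, against 1.02% of all genes), and 0 ligands met it in the lower direction, against 0.589%. An ordinary linear model without moderation of the variances left Ccl20 and Ccl8 past it (6.45%, against 0.781%) and called 0 ligands at an adjusted p under 0.05, against 0.176% of all genes higher and 0.121% lower.

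The 6 ligands without overlap kept an unadjusted p under 0.05 whichever mouse was left out, whereas the other 7 of the 13 lost it in 1 or more of those fits. Leaving out a mouse cannot undo full separation of the ages, so those fits are not separate support for the 6. The count of lower ligands was 2 without old mouse 6, young mouse 7 or young mouse 8. The share of all genes lower is not given for those fits. In whole tissue, more cells that make a ligand and more RNA per cell cannot be told apart.

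**Figure D1:**
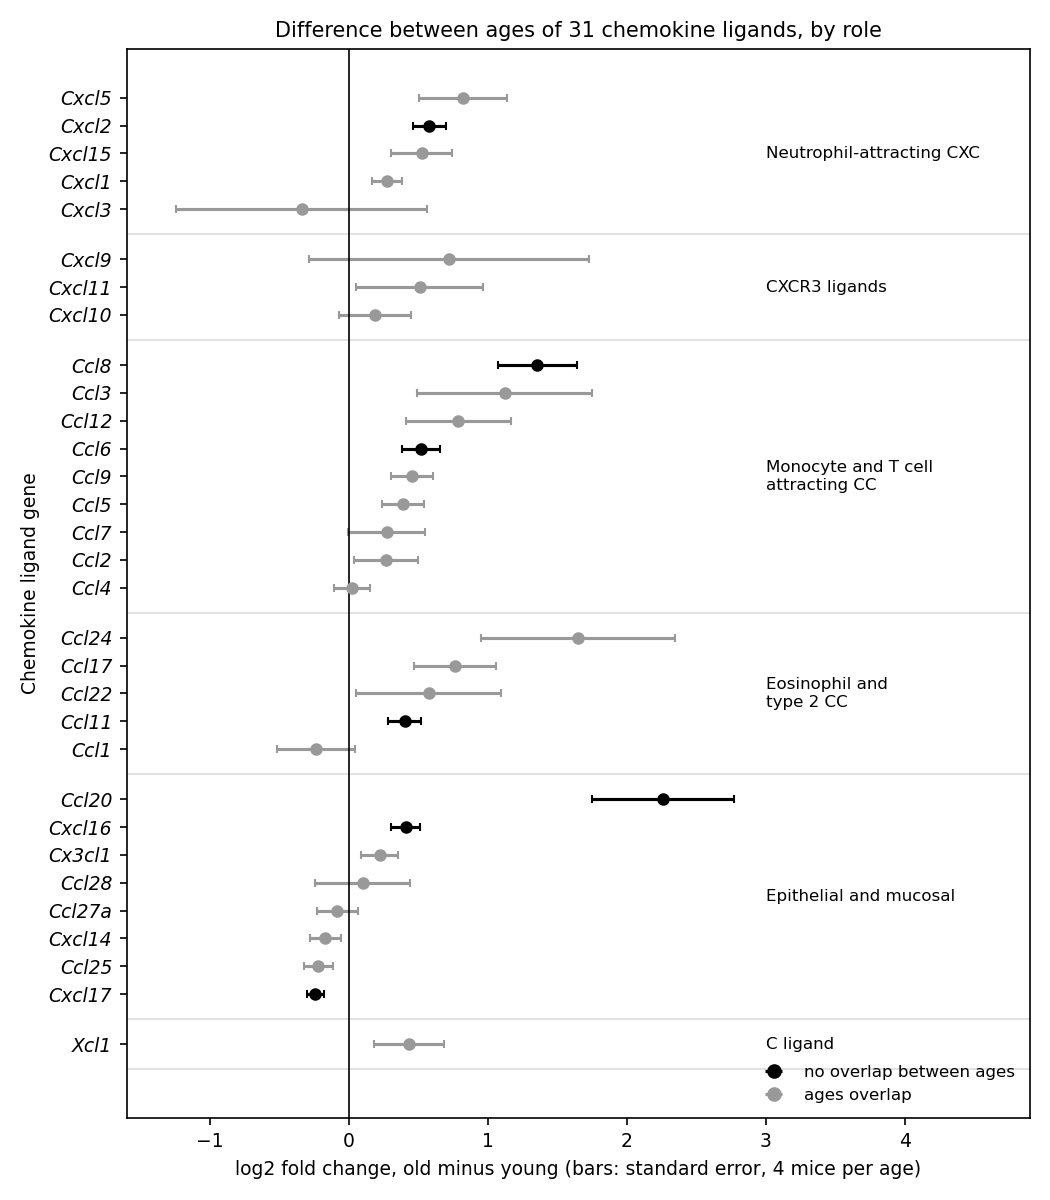
Log2 fold change of old minus young mice for the 31 ligands, grouped by role, with bars for the standard error (SE) of the limma fit (4 mice per age) and black points for ligands whose ages do not overlap. Ccl20 lies farthest to the right at 2.26, 25 of the 31 points lie right of 0, and Cxcl17 is the black point left of it at -0.24.

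The plot of differences by role shows the spread of the groups, which ran from a median log2 fold change of 0.01 in the epithelial and mucosal ligands to 0.57 in the eosinophil and type 2 ligands. The epithelial group held both the largest positive value and the ligand lower in every old mouse.

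Ccl20 is made by airway and gut epithelium and attracts cells that carry Ccr6, among them Th17 cells, B cells and immature dendritic cells. Its signal was 442, 794, 599 and 639 in old mice 1, 2, 5 and 6 and 122, 196, 44.4 and 243 in young mice 3, 4, 7 and 8. The lowest old mouse was above the highest young mouse. The old mice averaged 618 ± 145 (SD, n = 4) and the young mice 151 ± 87.0 (SD, n = 4), which is a log2 fold change of 2.26 (SE, the standard error, 0.51 and adjusted p = 0.116 by limma). The window of Ccl20 printed above is 1 of the 7 with a kappaB match. Ccr6, its receptor, was at 89.5, 131, 150.2 and 72.2 in old and 77.7, 64.2, 84.6 and 105 in young mice, which overlapped (log2 fold change 0.38, SE 0.26, adjusted p = 0.553).

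Cxcl16 is a transmembrane chemokine that can be shed from the surface of macrophages, dendritic cells and epithelium and binds Cxcr6. It was at 674, 671, 742 and 610.2 in old mice and 531, 554, 519 and 435 in young mice. The ages did not overlap and the log2 fold change was 0.41 (SE 0.10, adjusted p = 0.138). The second probe set of Cxcl16 gave 0.40, again with every old mouse above every young mouse. Cxcr6, carried by memory T cells, was the receptor that passed the test over all genes. Its signal was 296, 312, 453 and 436 in old mice and 137, 196, 129.8 and 158 in young mice. Cxcr6 rose by a log2 fold change of 1.26 (SE 0.19, adjusted p = 0.0471 by limma), close to the threshold of 0.05. Values of Cxcr6 from its second probe set and under the alternatives are not given.

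Cxcl17 is made by mucosal epithelium and was the ligand lower in every old mouse. Its signal was 7537, 8021, 7673 and 8098 in old and 9488, 8939.9, 9659 and 8977 in young mice. The means of 7832 ± 269.9 (SD, n = 4) and 9266 ± 362 (SD, n = 4) differed by a log2 fold change of -0.24 (SE 0.064, adjusted p = 0.154). The highest old mouse was below the lowest young mouse, although the difference was small beside that of Ccl20.

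Cx3cl1, fractalkine, is a membrane-bound ligand that attracts and tethers cells with Cx3cr1. It was at 604, 549, 776 and 761 in old and 602, 613, 532 and 543 in young mice. Old mice 5 and 6 were above all others and old mice 1 and 2 lay among the young mice, so the log2 fold change of 0.22 (SE 0.13, adjusted p = 0.495) was within the spread. Of the other probe sets of Cx3cl1, the brightest gave 0.49 (SE 0.16), with an unadjusted p under 0.05 and overlapping ages, and the dim ones 0.24 (SE 0.51) and 0.27 (SE 0.50). Its receptor Cx3cr1 was at a log2 fold change of 0.29 (SE 0.13, adjusted p = 0.367).

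The other 4 epithelial ligands overlapped between ages. Ccl28, which draws IgA plasma cells to mucosal surfaces through Ccr10, was at 487 to 639 in old and 316 to 1079.7 in young mice, with young mouse 4 at the top of the range. Ccl25, a ligand of Ccr9, was at 102 to 125 in old and 116 to 145 in young mice. Cxcl14, expressed by many epithelia, was at 188 to 229 in old and 215 to 286 in young mice, and Ccl27a, a skin chemokine, at 252 to 339.97 in old and 272 to 399 in young mice. The second probe sets of Ccl25 and Cxcl14 had every old mouse below every young mouse, at log2 fold changes of -1.04 and -0.64, against -0.22 and -0.17 for the brighter ones.

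Of the 8 epithelial and mucosal ligands, 2 were higher and 1 lower at an unadjusted p under 0.05 (7.23% and 7.29% of all genes). Epithelial markers moved unequally beside them. Of the club cell list 0 of 5 genes and of the ciliated cell list 0 of 5 had an unadjusted p under 0.05, and their summed signals overlapped between ages. The basal cell list had 3 of 5 higher (Krt5, Krt14 and Krt15). In each of them every old mouse was above every young mouse, against 4.95% of all genes. Krt14 was dim in young mice, at 13.4 to 48.3. Trp63 and Ngfr of the same list overlapped between ages, at log2 fold changes of -0.05 and 0.06. The part of these markers in the ligands' values was not tested.

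**Figure D2:**
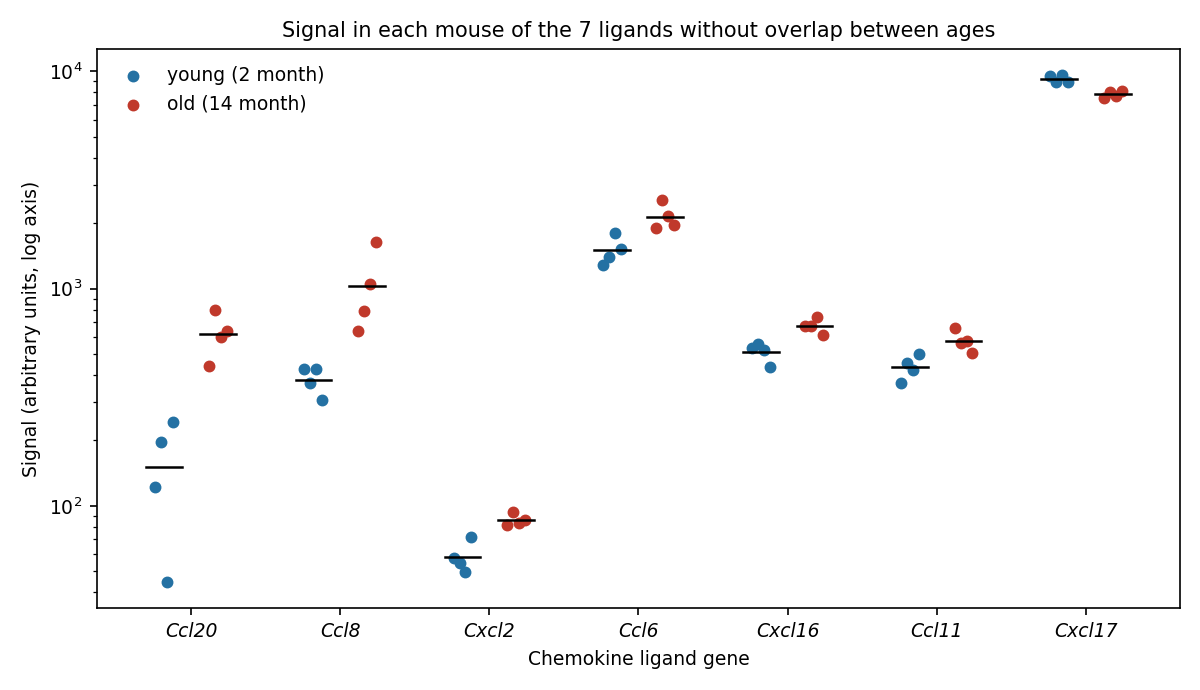
Signal of the 7 ligands whose ages do not overlap, on a log axis in arbitrary units, with 1 point per mouse (young in blue, old in red) and a line at the mean of 4 mice. The gap is widest for Ccl20, where old mice lie at 442 or above and young mice at 243 or below, and Cxcl17 is the ligand with the young mice on top.

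The plot of signals per mouse shows that the old mice differed most among themselves in Ccl8. Heights of different genes in it are not comparable, because probe sets differ in brightness for the same amount of RNA.

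The monocyte and T cell attracting CC ligands were all positive, 9 of 9, and 4 of them had an unadjusted p under 0.05. Among all genes, 48.9% were positive and 7.23% were higher at that threshold. Ccl8, monocyte chemoattractant protein 2, was at 641, 792, 1049 and 1639.8 in old and 425, 368, 426 and 306 in young mice. Old mouse 6 was highest and each old mouse was above all young mice. The means were 1031 ± 439.7 (SD, n = 4) and 381 ± 57.0 (SD, n = 4), and the log2 fold change was 1.36 (SE 0.28, adjusted p = 0.0984).

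Ccl6 and Ccl9 are chemokines of rodents that are made by myeloid cells and bind Ccr1. Ccl6 was at 1892, 2545, 2167 and 1959 in old and 1282, 1397, 1801 and 1515 in young mice. Its log2 fold change was 0.52 (SE 0.14, adjusted p = 0.157), and its second probe set gave 0.67, without overlap in either. Ccl9 was at 1499, 2269, 1812 and 1695 in old and 1117, 1239, 1435 and 1504 in young mice, where old mouse 1 was just below young mouse 8. Its log2 fold change was 0.45 (SE 0.15, adjusted p = 0.237), and a second probe set gave 0.99 with every old mouse above every young mouse. Ccr1 was at a log2 fold change of 0.39 (SE 0.20, adjusted p = 0.432).

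Ccl5, which attracts T cells and monocytes, was at 276, 294, 294 and 209 in old and 165, 214, 228 and 211 in young mice. Old mouse 6 lay among the young mice and the others above them (log2 fold change 0.39, SE 0.15, adjusted p = 0.293). The other 5 ligands overlapped. Ccl3 was at 16.7 to 70.4 in old and 6.67 to 31.6 in young mice, Ccl12 at 105.5 to 232 and 60.4 to 152, and Ccl2, which recruits monocytes, at 72.7 to 129 and 58.5 to 92.9. Ccl7 and Ccl4 had log2 fold changes of 0.27 (SE 0.28) and 0.02 (SE 0.13). Ccr2, the receptor of Ccl2, Ccl7 and Ccl12, was at 0.20 (SE 0.14, adjusted p = 0.557).

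Leukocyte markers were higher in old mice beside these ligands. At an unadjusted p under 0.05, 7.23% of all genes were higher, and 4.95% had every old mouse above every young mouse. All 5 genes of the general leukocyte list had an unadjusted p under 0.05, 3 of them without overlap, and their summed signal was 5437 to 7545 in old and 3697 to 4733 in young mice. Of the macrophage list 6 of 12 genes were higher at that threshold, all without overlap, while the summed signals of the list overlapped. Of the monocyte list 1 of 3 measured genes was higher, with sums of 3994 to 5725 in old and 2437 to 3666 in young mice. A summed signal is set mainly by the brightest genes of its list, so separate sums do not mean that every gene rose. In the monocyte list Chil3 alone ran from 37.3 to 2320 in old mice, and the ages overlapped in Ccr2. How much of the ligands' difference goes with these cells was not tested.

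Of the neutrophil-attracting CXC ligands, Cxcl1, Cxcl2, Cxcl3 and Cxcl5 act through Cxcr2. In the group of 5, which includes Cxcl15, 4 were higher at an unadjusted p under 0.05, against 7.23% of all genes. Cxcl1, Cxcl5 and Cxcl15 lost it in 1 or more fits that left out a mouse. Cxcl2 was at 82.0, 93.8, 83.6 and 85.7 in old and 57.3, 54.7, 49.3 and 71.5 in young mice. The old mice lay close together, all above the young mice. The log2 fold change of 0.58 (SE 0.12, adjusted p = 0.0964) had the smallest p of the 31 ligands in the main limma fit. With a trended and robust prior, limma gave an adjusted p of 0.21 for Cxcl2 and 0.0127 for Ccl8. Cxcl1 was at 362, 293, 349 and 393 in old and 312, 264, 304 and 273 in young mice, with old mouse 2 within the young range (log2 fold change 0.27, SE 0.11, adjusted p = 0.312). The 3 probe sets of Cxcl1 differed, at 0.27, 0.70 (without overlap) and 0.04, and the one used here carries the suffix of probes that can cross-hybridise. Both genes have the same kappaB letters in the windows printed above.

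Cxcl5, made by epithelial cells, was at 141, 169, 94.3 and 80.5 in old and 99.2, 47.4, 52.0 and 75.8 in young mice. Old mice 1 and 2 were above all young mice and old mice 5 and 6 below young mouse 3 (log2 fold change 0.82, SE 0.32, adjusted p = 0.292). Cxcl15, lungkine, a chemokine of lung epithelium, was at 586, 532, 335 and 667 in old and 426, 388, 318 and 311 in young mice. Old mouse 5 lay within the young range (log2 fold change 0.52, SE 0.22, adjusted p = 0.340). Cxcl3 was dim, at 1.58 to 27.0 in old and 8.82 to 25.3 in young mice, and its log2 fold change of -0.34 had a SE of 0.90.

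Neutrophil markers were also higher in old mice. Of the 6 measured genes of the list 3 were higher at an unadjusted p under 0.05, S100a8, S100a9 and Csf3r, all without overlap. Camp was lower at that threshold. Among all genes 7.23% were higher and 7.29% lower. The summed signal of the list was 746 to 2082 in old and 320 to 594 in young mice. Its highest value, in old mouse 5, held 1089 from S100a8 and 490 from S100a9. Cxcr2 itself was at 4.89 to 16.3 in 7 mice and at 124 in old mouse 5 (log2 fold change 0.44, SE 0.97, adjusted p = 0.879). The part of neutrophils in these values was not tested.

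The eosinophil and type 2 ligands gave 3 of 5 higher at an unadjusted p under 0.05, against 7.23% of all genes. Ccl11, eotaxin, which attracts eosinophils through Ccr3, was at 659, 559, 574 and 506 in old and 368, 455, 422 and 499 in young mice. The ages did not overlap, with 506 in the lowest old mouse and 499 in the highest young mouse (log2 fold change 0.40, SE 0.12, adjusted p = 0.193). Ccl24, eotaxin 2, was dim and variable, at 27.1, 122, 75.9 and 105 in old and 23.4, 25.3, 7.62 and 60.7 in young mice. Old mouse 1 was below young mouse 8 (log2 fold change 1.65, SE 0.70, adjusted p = 0.339). With every signal under 64 set to 64, its log2 fold change was 0.47. Ccr3 was dim and its log2 fold change was 0.26 (SE 0.26, adjusted p = 0.711).

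Ccl17 and Ccl22 are made by dendritic cells and bind Ccr4 on Th2 and regulatory T cells. Ccl17 was at 146, 217, 152 and 338 in old and 106, 132, 153.8 and 92.0 in young mice. Old mice 2 and 6 were above all young mice, and old mice 1 and 5 below young mouse 7 (log2 fold change 0.76, SE 0.29, adjusted p = 0.295). Ccl22 was at 40.1 to 79.9 in old and 14.2 to 68.7 in young mice (log2 fold change 0.57, SE 0.52, adjusted p = 0.673). Ccl1, a Ccr8 ligand, did not exceed 8.89 in any mouse. Ccr4 was at a log2 fold change of -0.39 (SE 0.18, adjusted p = 0.380), and Ccl26, like the epithelial ligand Ccl27b, was not analysed here.

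Of the dendritic cell list 4 of 7 genes were higher at an unadjusted p under 0.05, all without overlap, with a summed signal of 3705 to 4744 in old and 2531 to 3089 in young mice. Of the mast cell list 0 of 6 had an unadjusted p under 0.05. At that threshold 7.23% of all genes were higher and 7.29% lower. The part of these cells in the type 2 ligands was not tested.

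The interferon-inducible ligands Cxcl9, Cxcl10 and Cxcl11 attract T cells and NK cells with Cxcr3, and 0 of 3 had an unadjusted p under 0.05. At that threshold 7.23% of all genes were higher and 7.29% lower. Cxcl10 was at 93.5 to 162 in old and 70.9 to 148 in young mice, which overlapped (log2 fold change 0.19, SE 0.26, adjusted p = 0.798). Cxcl9 was at 11.5 to 116 in old and 6.21 to 73.5 in young mice, with 1 very low mouse in each age (log2 fold change 0.72, SE 1.01). Cxcl11, listed as a transcribed pseudogene in the RefSeq table of this strain, was at 61.9 to 89.7 in old and 19.8 to 86.6 in young mice (log2 fold change 0.51, SE 0.46). A second, dimmer probe set of Cxcl11 gave 0.69 (SE 0.29), with an unadjusted p under 0.05 and overlapping ages. Cxcr3, in contrast, was at 166, 144.7, 187 and 158 in old and 107, 117, 126 and 144.7 in young mice. Each old mouse was above each young mouse, though old mouse 2 and young mouse 8 differed by very little (log2 fold change 0.41, SE 0.12, adjusted p = 0.184).

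Xcl1, a C chemokine of T cells and NK cells, was at 75.5 to 109 in old and 48.7 to 104 in young mice (log2 fold change 0.43, SE 0.25, adjusted p = 0.485). Its receptor Xcr1, a marker of cross-presenting dendritic cells, was at 150.3, 127, 171 and 178 in old and 88.1, 103, 90.3 and 89.2 in young mice. All old mice were above all young mice, with a log2 fold change of 0.75 (SE 0.12, adjusted p = 0.0545). Of the T cell list 4 of 6 measured genes and of the NK cell list 1 of 5 were higher at an unadjusted p under 0.05. In the NK cell list 1 gene was lower. The shares of all genes were 7.23% higher and 7.29% lower.

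**Figure D3:**
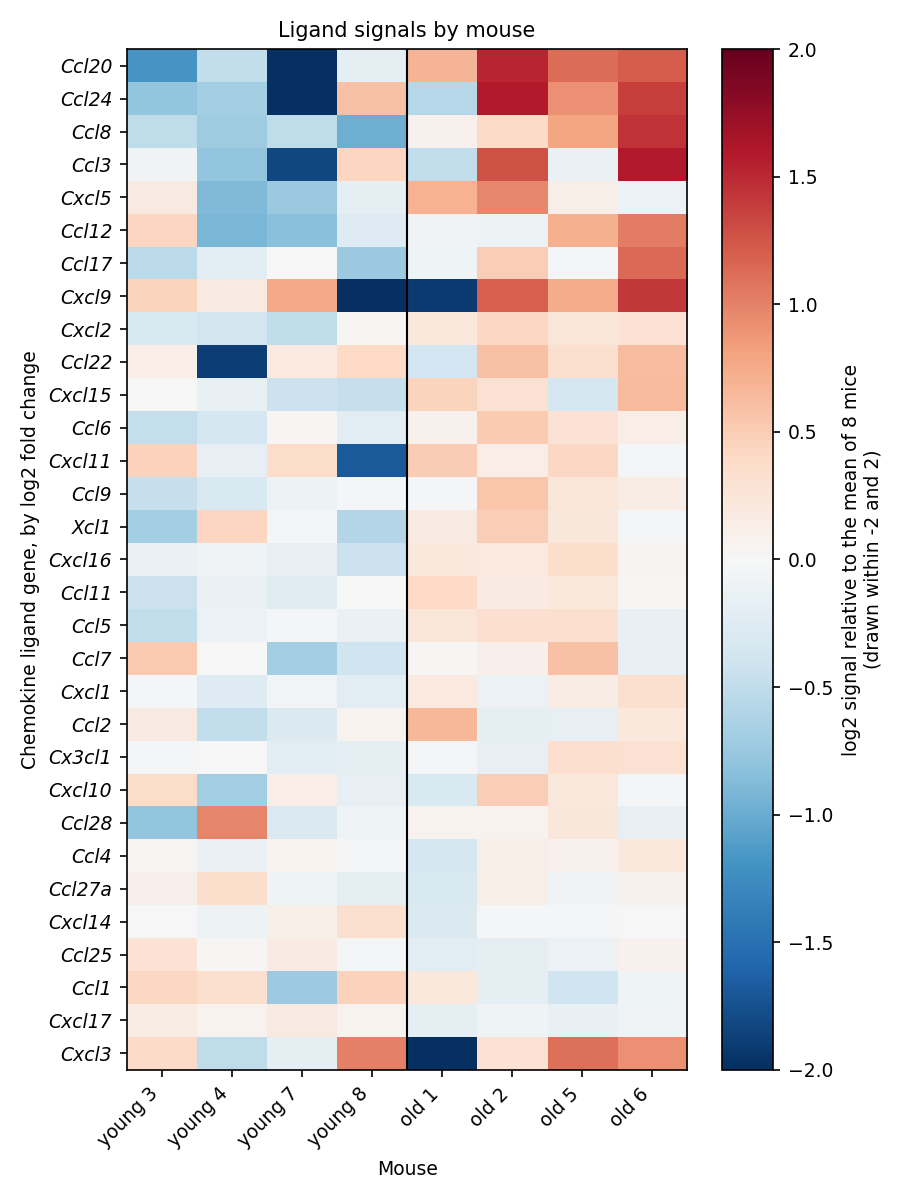
Log2 signal of each ligand in each mouse relative to the mean of the 8 mice, with ligands ordered by log2 fold change and the colour scale limited to between -2 and 2. Red prevails in old mice 2, 5 and 6 in the upper rows, and old mouse 1 is paler, with 17 ligands at the lowest value of its age.

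The map of signals by mouse shows that the old mice did not share 1 profile. Old mouse 6 had the highest value of its age in 12 ligands and old mouse 2 in 10, whereas old mouse 1 had the highest in 4 and the lowest in 17. The median deviation over the ligands from the mean of all mice was 0.02, 0.30, 0.22 and 0.14 on the log2 scale in old mice 1, 2, 5 and 6. In young mice 3, 4, 7 and 8 it was -0.01, -0.17, -0.17 and -0.17. Old mouse 1 was above the mean of all mice in 16 of the 31 ligands and the other old mice in 21 to 23. Among markers of neighbouring tissue, old mouse 6 was at 2986 in Sftpc of alveolar lung and the other old mice at 453 to 593. In Sftpa1, also of alveolar lung, old mouse 6 was lowest of its age at 3326. Rag1 of thymus was at 429 in old mouse 6 and at 2.19 to 46.2 in the other old mice. The summed skeletal muscle signal was 1524 to 2229 in old and 2373 to 3147 in young mice, and the other such sums overlapped. Carry-over of such tissue was not tested.

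Many chemokine genes lie side by side in the mouse genome. The RefSeq gene table places 22 of the 31 ligands in 5 groups in which successive genes are within 300000 bases of each other. On chromosome 11, Ccl2, Ccl7, Ccl11, Ccl12, Ccl8 and Ccl1 lie in that order, and Ccl8 at 1.36 stands between Ccl12 at 0.79 and Ccl1 at -0.24. In the second group on chromosome 11, Ccl5, Ccl9, Ccl6, Ccl3 and Ccl4 were all positive, from 0.02 in Ccl4 to 1.12 in Ccl3. On chromosome 5, Cxcl2 without overlap between ages lies next to Cxcl1, and Cxcl3 in the same group at -0.34 was too dim to be read. Other neighbours had similar values, such as Ccl5 at 0.39, Ccl9 at 0.45 and Ccl6 at 0.52, and likeness between neighbours was not tested. In the groups, 2 of 6, 1 of 5, 1 of 5, 0 of 3 and 0 of 3 ligands had every old mouse above every young mouse. The share of all genes was 4.95%, and groups of 3 to 6 ligands are too small to set against it.

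**Figure D4:**
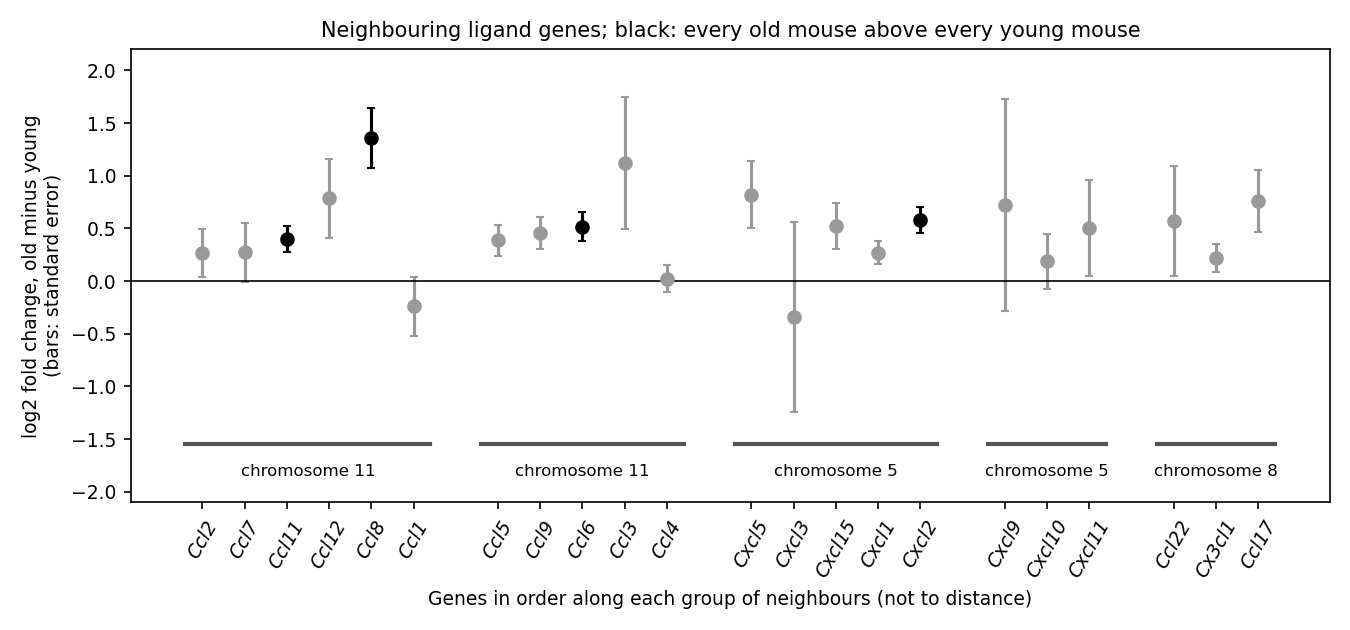
Log2 fold change of old minus young for the ligands that lie in groups of neighbouring genes, in their order along the chromosome and not to distance, with bars for the standard error and black points where every old mouse is above every young mouse. In the first group on chromosome 11, Ccl8 at 1.36 and Ccl1 at -0.24 are next to each other.

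The plot of neighbouring genes places Ccl11 and Ccl8 in the same group with Ccl12 between them, whose ages overlapped. Long bars belong to the dim ligands, such as Cxcl3, Cxcl9 and Ccl3.

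The wider receptor list followed the pairs given above. Of the 18 signalling receptors 16 were measured. At an unadjusted p under 0.05, 4 were higher (Cxcr6, Xcr1, Cxcr4 and Cxcr3) and 0 lower, against 7.23% and 7.29% of all genes. The median log2 fold change of the list was 0.34. Cxcr4, the receptor of Cxcl12, was at 0.51 (SE 0.15, adjusted p = 0.180) without overlap. The atypical receptors, which take up chemokines without signalling through G proteins, had 0 of 5 with an unadjusted p under 0.05 and a median of 0.01.

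Of the cytokines and transcription factors known to induce chemokines, 20 of 24 were measured. An unadjusted p under 0.05 was found for 3, all higher and without overlap. The shares of all genes higher at that threshold and with every old mouse above were 7.23% and 4.95%. Il1b, an inducer of Cxcl1, Cxcl2 and Ccl20 in many cells, was at 225, 338, 325 and 330.4 in old and 127, 172, 176 and 203 in young mice (log2 fold change 0.85, SE 0.18, adjusted p = 0.106). Il33, an epithelial and stromal alarmin, was at 0.41 (SE 0.11, adjusted p = 0.171) and Il4, a type 2 cytokine, at 0.51 (SE 0.15, adjusted p = 0.174). The next by p was Relb, an NF-kappaB subunit, at 0.27 (SE 0.13, adjusted p = 0.399). The median of the list was 0.11, and Tnf was dim, at 28.5 to 80.8 in old and 16.6 to 57.1 in young mice.

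Among 9 proteases that cleave or shed chemokines, Mmp9 and Mmp12 were higher and Mmp2 lower at an unadjusted p under 0.05, each without overlap. The shares of all genes higher and lower at that threshold were 7.23% and 7.29%. The log2 fold change of Mmp12, the macrophage elastase, was 0.88 (SE 0.27, adjusted p = 0.193). Adam10 and Adam17, which shed Cxcl16 and Cx3cl1, were not among the 3.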

How the data were processed

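Total RNA of each mouse was hybridised to 1 array. According to the methods, the authors used robust multichip analysis in Partek. The deposited table holds intensity on a linear scale for 45101 probe sets, and the mean of each array with 2% trimmed at each end is 500.002, so how the values were scaled is not settled. There are no detection calls. The number of arrays limits the precision.

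The deposited intensity was taken to log2 with no floor or further normalization, and 64 control probe sets were left out. Gene names come from the platform annotation. A gene took its brightest probe set with 1 symbol by mean log2, and immunoglobulin genes and Jchain were left out, giving 18172 genes. Of the ligands 20 have 1 probe set and 11 several. The ages were tested with limma 3.58.1 in R 4.3.3 (lmFit and eBayes, two-sided), with Benjamini-Hochberg adjustment over all genes. Age was the only term because the second factor of the methods' analysis is not named. The fit was checked on simulated data. P-values set the difference between ages against the spread between the mice of this experiment, with variances moderated across all genes.

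The members, roles and lists were chosen with earlier results of these data known. Values per mouse are given for ligands with an adjusted or unadjusted p under 0.05, with no overlap between ages, listed in the study's gene tables, or among the 6 brightest. Of each pathway list, genes with an adjusted p under 0.05 and up to 4 with the smallest p were named. Receptors of the ligands, Tnf and markers outside this rule were added after their values were seen. Alternatives left out each mouse, or changed the model, prior, weights, normalization, floor, probe sets or block.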

Additional observations from a re-analysis of the deposited data

Results flagged for a closer look

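Dixon's ratio was taken for each ligand and age, 62 groups of 4 mice in all, of which 4 held a mouse far from the others of its age. Chance gives about 1 in 20 such groups. Each was a low value. Ccl22, the Ccr4 ligand, was at 14.19 in young mouse 4 and at 57.4 to 68.7 in the other young mice. Cxcl9, the interferon-inducible ligand, was at 6.208 in young mouse 8 and at 49.3 to 73.5 in the others. Ccl1 was at 3.926 in young mouse 7, against 8.09 to 8.89. Cxcl14, the epithelial ligand, was at 187.9 in old mouse 1 and at 226 to 229 in the other old mice. None of these 4 ligands had an unadjusted p under 0.05 between ages.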

How the results depend on the processing

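All 15 ligands with values per mouse kept their direction under each of the 19 alternatives that could be run on them. Ccl24, Cxcl2 and Cxcl5 are not among the brighter probe sets and have no value there. Leaving out 1 mouse gave 9 to 10 ligands higher at an unadjusted p under 0.05 (29% to 32.3%, against 6.12% to 7.36% of all genes). It gave 1 to 2 lower at that threshold and 0 to 0 at an adjusted p in either direction. In those fits, 6 to 9 ligands had every old mouse above every young mouse and 1 to 2 had every old mouse below. The median log2 fold change was 0.33 to 0.45. The share of all genes with every old mouse above also grew when 1 mouse was left out, from 4.95% to between 6.49% and 7.65%. The most ligands above, 9 (29%, against 6.72% of all genes), was without old mouse 1. A trended and robust prior called 3 higher (Ccl8, Ccl20 and Ccl6) and 1 lower (Cxcl17) at an adjusted p under 0.05. The brighter probe sets alone, with 16 ligands among 11864 genes, called 3 higher (Ccl8, Ccl20 and Cxcl16). A floor of 64 called 3 higher (Ccl8, Ccl20 and Cxcl2) and gave a median of 0.26. In Cxcl2 that floor set young mice 3, 4 and 7 to the same value. Why the trended prior, the brighter probe sets and the floor called more was not tested. The share of all genes called at an adjusted p was not counted under them, so these calls have no background. Averaging the probe sets of each gene gave 3 ligands lower at an unadjusted p under 0.05 and 3 with every old mouse below. Shares of all genes in these 2 directions are not given for any alternative. In the main fit they were 7.29% and 5.11%, so these small counts are not read as a result. The ordinary linear model without moderation gave 9 higher at an unadjusted p under 0.05 (29%, against 7.12% of all genes) and 0 at an adjusted p. It gave 2 past a fold of 2 with p under 0.05 (Ccl8 and Ccl20), against 3 by limma. Cxcl1 was at 0.70 without the probe sets prone to cross-hybridisation and Ccl9 at 0.72 with the mean of its probe sets. No paired analysis was possible because the ages share no mouse number. With a block for mice 1 to 4 and mice 5 to 8, 12 were higher at an unadjusted p under 0.05 (38.7%, against 7.31% of all genes). Depth is not defined for arrays, and 4 ligands had a mean signal under 64 in both ages.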

Other observations

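The platelet chemokines lay outside the ligands above. Pf4, platelet factor 4, was at 1906, 1922, 2047 and 2327 in old and 1782, 1632, 1527 and 1749 in young mice, so that the ages did not overlap (log2 fold change 0.29, standard error, SE, 0.092, adjusted p = 0.211 by limma). Ppbp, the precursor of further platelet chemokines that act on Cxcr2, was at 454, 242, 31.4 and 1232 in old mice 1, 2, 5 and 6 and at 37.7 to 96.6 in young mice. Old mouse 5 was below every young mouse and old mouse 6 far above them (log2 fold change 2.14, SE 1.03, adjusted p = 0.391). Cxcl12, which holds leukocytes in tissue through Cxcr4, was at a log2 fold change of 0.01 (SE 0.075, adjusted p = 0.955), with both ages between 2665 and 3063.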
